A study of Mus musculus with 24 samples.

Results

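Notch signalling and neural progenitor factors were represented by 9 protein-coding genes, chosen by symbol with earlier results of these data known. They were the ligands Dll1 and Jag1, the receptors Notch1 and Notch2, the transcriptional repressors Hes1, Hes5 and Hey1, and the transcription factors Sox2 and Sox9. All 9 were among the 53379 genes counted, and all 9 were among the 37598 genes that passed the filter on low counts. Right hippocampi of adult male C57/BL6N mice, 8 injected with kainic acid (KA) and 8 saline-injected shams (SH), were taken 24 hours after status epilepticus in KA mice and at the same interval in SH mice. The tissue was combined into 3 pools of several mice per treatment, so that single animals were not measured. The first sample of each treatment pooled more mice than the other ones. Nuclei of each pool were sorted with an antibody to NeuN, a protein of neuronal nuclei, into NeuN+ nuclei (neurons) and NeuN- nuclei (glia), and polyadenylated RNA of the nuclei was sequenced. This gave 3 libraries each of SH neurons, KA neurons, SH glia and KA glia. The glia are a mixture of every NeuN- cell type, and in such bulk samples fewer cells of a type and less RNA per cell cannot be told apart.

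Libraries held between 7769400 and 40364768 counts in total (median 21380824.5). SH glia replicate 1 and KA glia replicate 2 were amplified from 0.05 ng RNA with 15 PCR cycles, and the other 10 libraries from 1 ng with 10 cycles. The 4 libraries numbered 3 had between 36165 and 42160 genes with at least 1 count, and the others between 40660 and 47748. The summed CPM (read counts scaled to a common library size after TMM normalization) of 10 neuronal markers was 4440 to 7810 in neurons and 317 to 1440 in glia. The sum of 8 oligodendrocytic markers was 87.8 to 993 in neurons and 6490 to 25000 in glia, and that of 10 astrocytic markers was 272 to 880 in neurons and 929 to 3010 in glia. The markers thus followed the labels, with neuronal markers measurable in glia and glial markers measurable in neurons. No defining marker of these 3 lists was at 0 in every library of a group.

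Notch receptors are cut when a ligand of the Delta or Jagged family on a neighbouring cell binds them, and the freed intracellular part enters the nucleus. There it joins the DNA-binding protein RBPJ and switches on target genes, among them the Hes and Hey repressors, which hold back proneural genes. In the adult hippocampus the pathway is known for keeping neural stem cells of the dentate gyrus undifferentiated, and several of its components are also expressed by astrocytes and by other glia. SOX2 is a transcription factor of neural stem cells and astrocytes, and SOX9 is a factor of gliogenesis that stays in astrocyte nuclei of the adult brain.

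The promoter of Hes5, the gene with the clearest difference between KA and SH in glia, is shown with those of the ligand Dll1 and the receptor Notch1, whose KA and SH libraries were also separated in at least 1 cell type. Each sequence is the 250 bases before a start site of RefSeq (GRCm38.p6), read 5′ to 3′ on the strand of the gene. Capitals mark TGGGAA, the core letters of an RBPJ site, on either strand, where the opposite strand reads TTCCCA.
Hes5, chr4:154960673-154960922, plus strand: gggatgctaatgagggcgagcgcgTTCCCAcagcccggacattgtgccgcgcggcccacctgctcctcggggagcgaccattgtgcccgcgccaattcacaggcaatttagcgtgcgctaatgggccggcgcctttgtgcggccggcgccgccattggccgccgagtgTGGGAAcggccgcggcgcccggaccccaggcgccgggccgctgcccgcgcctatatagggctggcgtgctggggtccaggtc
Dll1, chr17:15376933-15377182, minus strand: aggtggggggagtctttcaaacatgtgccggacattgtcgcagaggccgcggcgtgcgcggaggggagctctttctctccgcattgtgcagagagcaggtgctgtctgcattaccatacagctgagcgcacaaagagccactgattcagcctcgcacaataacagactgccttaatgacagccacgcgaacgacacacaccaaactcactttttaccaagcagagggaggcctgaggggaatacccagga
Notch1, chr2:26503823-26504072, minus strand: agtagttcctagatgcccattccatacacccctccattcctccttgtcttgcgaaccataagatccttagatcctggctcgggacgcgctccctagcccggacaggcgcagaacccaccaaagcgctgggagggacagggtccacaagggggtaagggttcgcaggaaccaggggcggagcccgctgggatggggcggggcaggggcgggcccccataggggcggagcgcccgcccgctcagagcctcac
The Hes5 window held 2 copies of TGGGAA, beginning 226 bases before the start on the opposite strand and 82 bases before it on the strand of the gene. Both copies were also matches to the longer GTGGGAA, which contains the core. Of the 32851 promoter windows of the same length, 21.6% held at least 1 TGGGAA and 2.77% held at least 2, while 5.42% held at least 1 GTGGGAA and 0.161% held at least 2. Promoters were at hand for 6 of the 9 genes, in 7 windows, and those of Hes1, Hey1 and Sox9 were not used here. TGGGAA was not found in the other 6 windows, those of Dll1 (2 starts), Notch1, Notch2, Jag1 and Sox2, which says only that these letters are not in these stretches.

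All 9 genes were measured in both cell types. Levels per length are given as RPKM, the CPM per 1000 bases of annotated exons. In SH glia the mean RPKM was highest for Sox2 (38.6 ± 12.8) and Hes5 (31.0 ± 25.7; SD, n = 3), followed by Sox9 at 17.2, Dll1 at 12.6, Notch1 at 8.37, Hes1 at 6.71, Notch2 at 6.35, Hey1 at 4.57 and Jag1 at 3.01. Every pair of neighbours in this order overlapped between libraries. In SH neurons the order was another one, with Hes1 at 10.8 ± 5.85 and Hey1 at 9.07 ± 1.48 RPKM (SD, n = 3) ahead of Notch2 at 4.25, Sox2 at 3.94, Dll1 at 3.56, Jag1 at 3.11, Sox9 at 2.58, Hes5 at 2.28 and Notch1 at 1.64. The step from Hey1 to Notch2 was the only one in SH neurons without overlap between the 3 libraries of either gene. In KA glia the order began with Sox2 at 30.7 and Sox9 at 18.9 RPKM, and Hes5 stood seventh at 4.65. In KA neurons it began with Hes1 at 11.8 and Sox9 at 7.92 RPKM, and Hes5 was last at 0.636.

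**Figure D1:**
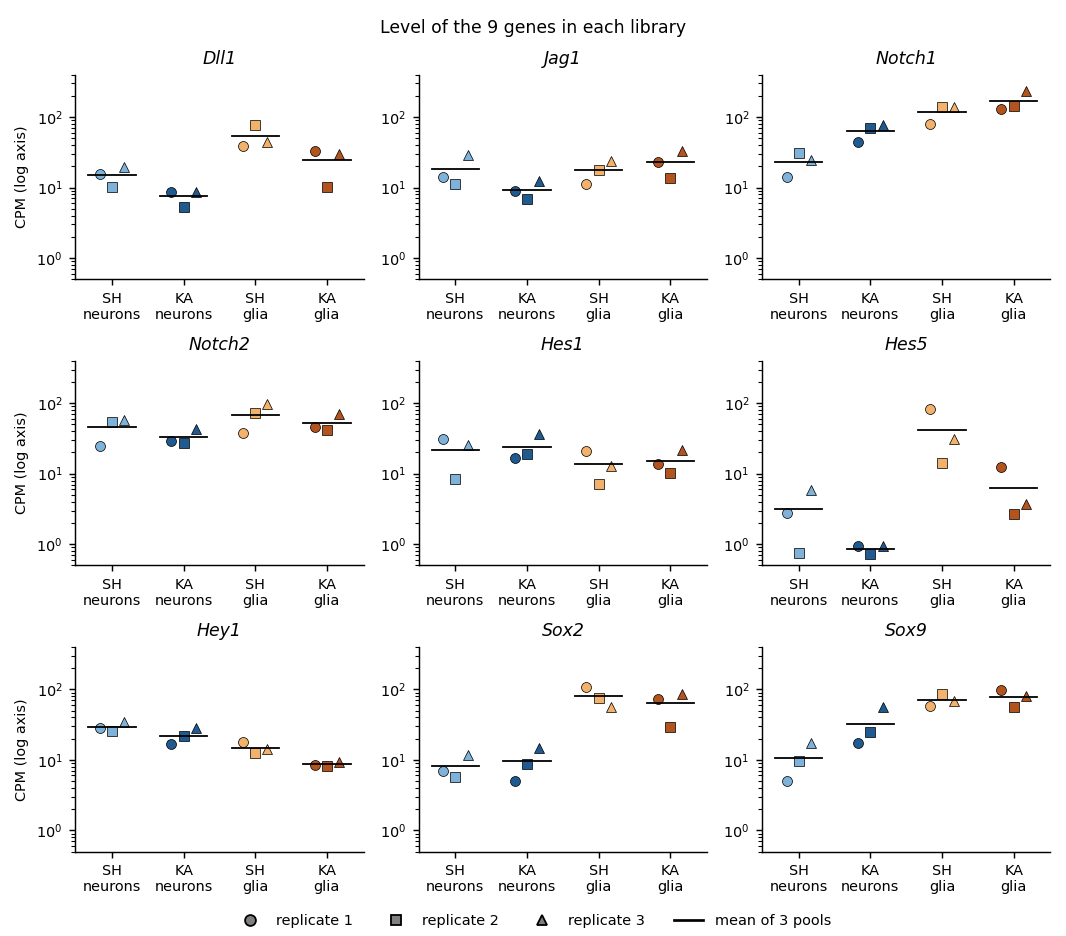
CPM of each of the 9 genes on a log axis in the 12 libraries, by group, with the replicate number as symbol and the mean of the 3 pools as a line. Sox2, Sox9, Hes5, Notch1 and Dll1 lie higher in glia than in neurons of the same pool (same treatment and symbol), Notch1 in KA neurons (43.6 to 77.2) lies above SH neurons (14 to 31.2), and Hes5 in KA glia (2.71 to 12.6) lies below SH glia (14.3 to 81.6).

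The first comparison was that of glia with neurons over both treatments. Of the 9 genes, 7 were higher in glia and 1, Hey1, was lower, at an FDR below 0.25 (edgeR quasi-likelihood test over all genes, Benjamini-Hochberg). Over all genes tested, 10.9% were called higher and 18.6% lower in glia. Hes5 had the largest logFC of the 9, 3.30 (standard error 0.54, FDR 0.000266), followed by Sox2 with 3.01 (FDR 1.32e-05), Sox9 with 1.99 (FDR 0.000357), Notch1 with 1.89 (FDR 0.000131) and Dll1 with 1.76 (FDR 0.000509). For these 5 genes and for Notch2 the level was higher in glia in 6 of 6 pools (p = 0.03125 in an exact sign-flip test, two-sided, which cannot go lower with 6 pools).

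Notch2 and Jag1 were called higher in glia by smaller margins, with logFC 0.62 (FDR 0.179) and 0.63 (FDR 0.206). Jag1 was higher in glia in 4 of 6 pools (exact sign-flip p = 0.125), and both exceptions were SH pools. Its level in glia was 0.805, 1.55 and 0.817 times that in neurons in SH pools and 2.63, 2.00 and 2.61 times in KA pools. When every library was left out in turn, the Jag1 call was kept in 5 and the Notch2 call in 6 of 12 fits, whereas the calls of the other 6 genes were kept in all 12. The 7 fits without the call of Jag1 and the 6 without that of Notch2 gave FDR values up to 0.415 and 0.389; those for both genes included the fits without SH neurons 1, KA neurons 1 or 2, SH glia 2 or 3, or KA glia 3, and for Jag1 also SH neurons 2.

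Hey1 and Hes1, both repressors downstream of Notch, stood on the neuronal side. Hey1 was lower in glia (logFC -1.17, standard error 0.22, FDR 0.000864), and its level in neurons was 160% to 303% of that in glia of the same pool. Hes1 was below in glia in 6 of 6 pools (exact sign-flip p = 0.03125), and its level in neurons was 120% to 200% of that in glia. Its logFC of -0.67 had an FDR of 0.253 and missed the threshold. With the pool as a block the FDR of Hes1 was 0.00961, in a fit that called 26.4% of all genes lower in glia. Leaving out SH neurons 2, KA neurons 1 or KA glia 3 gave an FDR of 0.0844, 0.206 and 0.123.

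The scaling bears on this comparison, because the median logFC of all genes moved by 0.148 when size factors of the RLE method replaced TMM. The share of genes called was then 13.1% higher and 14.3% lower in glia. The same 8 genes were called with RLE, and no sign differed. The logFC of Hey1 was then -1.01 (FDR 0.00323), and that of Sox2 3.16 (FDR 6.62e-06).

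How far the levels in neurons followed glial markers in the same nuclei was given by the ratio within each pool. In SH pools Hes5 in neurons was 3.41% to 18.8% and Sox2 6.45% to 20.9% of the level in glia. The astrocytic marker sum in neurons was 9.68% to 29.3% of that in glia in SH pools, the OPC (oligodendrocyte precursor) sum 2.03% to 6.63% and the oligodendrocytic sum 1.15% to 3.97%. In KA pools Hes5 in neurons was 7.46% to 26.8% and Sox2 6.74% to 29.8% of glia, beside 14.8% to 51.2% for the astrocytic sum. The ranges of Hes5 and Sox2 overlapped that of the astrocytic markers, a sum to which Slc4a4 and Slc1a2 gave the most in neurons. Their means in SH neurons were 167 and 126 CPM, beside a mean sum of 524 CPM. Of the 10 astrocytic genes, 9 were called higher in glia, but Slc4a4 was not, with a mean of 164 CPM in SH glia. The part of astrocytic RNA in their levels in neurons was not tested.

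**Figure D2:**
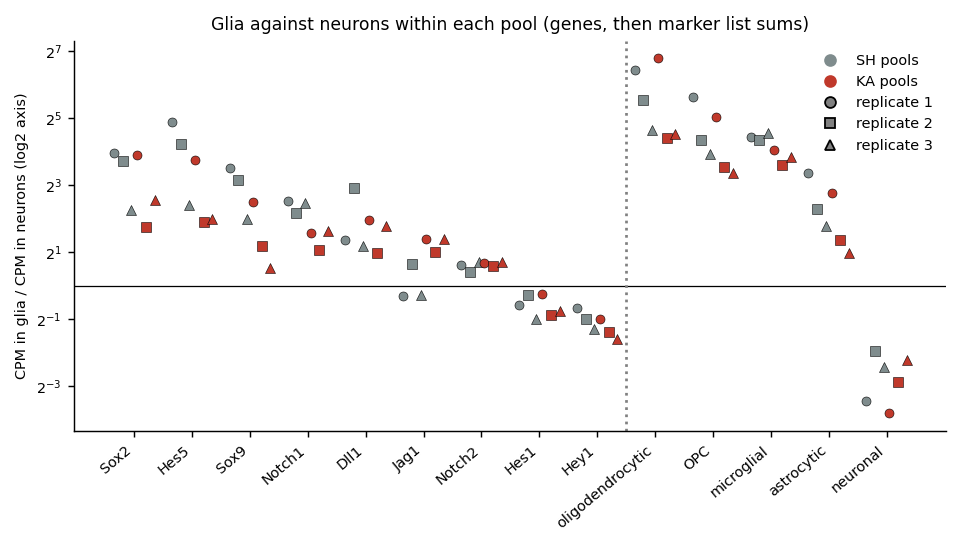
Ratio of the CPM in glia to that in neurons of the same pool, on a log2 axis, for the 9 genes and for 5 summed marker lists; grey symbols are SH pools, red symbols KA pools, and shapes are replicate numbers. Hes1 and Hey1 lie below 1 in all 6 pools, Jag1 lies on both sides, and the other 6 genes lie above 1.

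In glia, KA was compared with SH to see which of the 9 genes differed 24 hours after status epilepticus. Only Hes5 passed the threshold, and it was downregulated. The study's own list of genes called in glia, from separate tests of each cell type, does not name Hes5. Over all genes tested, 0.442% were called upregulated and 0.306% downregulated in glia. At an unadjusted p below 0.05 there were 3 of the 9 (4.79% of all genes), Hes5, Dll1 and Hey1, and all 3 had their KA libraries below their SH libraries without overlap. Over all genes, KA glia lay below SH glia without overlap for 3% and above for 3.61%, and none of the 9 genes lay above.

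Hes5 (ENSMUSG00000048001, chromosome 4 from 154960923 to 154962371, GRCm38) encodes a repressor that is a direct target of Notch. Its CPM was 81.6, 14.3 and 30.8 in SH glia 1, 2 and 3, and 12.6, 2.71 and 3.71 in KA glia 1, 2 and 3. All KA libraries were below all SH libraries, although the lowest SH and the highest KA library were close, and the SH libraries themselves spread widely. The mean was 42.2 ± 35.1 CPM in SH and 6.34 ± 5.44 CPM in KA glia (SD, n = 3), with a logFC of -2.75 (standard error 0.73, FDR 0.240). Within each number the KA library had 0.154, 0.190 and 0.120 of the SH level. An exact permutation test of the 3 against 3 libraries gave p = 0.1, the smallest it allows.

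The call of Hes5 was near the threshold and depended on single libraries and on the test. Over all 12 libraries the FDR was 0.00590 with DESeq2, 0.0519 with edgeR 4 (legacy=FALSE), 0.0286 with no filter on low counts and 0.111 when at least 10 counts in every library were required. It was kept in 2 of the 6 fits that left out a glia library. Without SH glia 1, a low-input library with the highest level, the logFC was -1.72 with an FDR of 0.941. Without KA glia 1, the KA library with the highest level, the logFC was -3.68 with an FDR of 0.0751. Without SH glia 3, KA glia 2 or KA glia 3 the FDR was 0.398, 0.715 and 0.386. Without both low-input libraries the logFC was -1.79 and the FDR 1.00. Without the 4 libraries numbered 3 the logFC was -2.67 and the FDR 0.728, and in the separate fit of glia it was -2.55 with an FDR of 0.568. With the replicate number as a block the logFC was -2.72 and the FDR 0.000563, in a fit that called 3.47% of all genes upregulated and 4.17% downregulated in glia. Of the exon bases of Hes5, 31.8% are shared with Gm20421 on the opposite strand, and reads there were left out by the counting; Gm20421 itself had at most 0.179 CPM in any library.

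Dll1 (ENSMUSG00000014773, chromosome 17 from 15367354 to 15376872) encodes a Delta-like ligand that activates Notch on neighbouring cells. Its CPM was 39.4, 76.4 and 43.8 in SH glia and 33.2, 10.3 and 29.9 in KA glia. The groups did not overlap, with KA glia 2, a low-input library, far below the other 2 KA libraries. The means were 53.2 ± 20.2 and 24.5 ± 12.4 CPM (SD, n = 3), and the logFC of -1.12 (standard error 0.43) had an FDR of 0.754. With the block, Dll1 was downregulated in glia (logFC -1.18, FDR 0.148), and with DESeq2, which called 0.971% of all genes upregulated and 1.72% downregulated in glia, its FDR was 0.236. Of its exon bases, 20.5% are shared with A930024N18Rik on the opposite strand, which had at most 3.33 CPM in any library.

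Hey1 (ENSMUSG00000040289, chromosome 3 from 8663359 to 8667256) encodes a repressor of the Hey family of Notch targets. Its CPM was 17.9, 12.6 and 14.3 in SH glia and 8.43, 8.30 and 9.27 in KA glia. The 3 KA libraries were close together and below each SH library. The means were 14.9 ± 2.72 and 8.66 ± 0.525 CPM (SD, n = 3), and the logFC of -0.78 (standard error 0.31) had an FDR of 0.801. With the block, Hey1 was downregulated in glia (logFC -0.77, FDR 0.210).

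The other 6 genes overlapped between SH and KA glia and were called by no fit tried. Hes1, the other Hes repressor, had 21.0, 7.06 and 13 CPM in SH and 13.7, 10.4 and 21.5 CPM in KA glia (logFC 0.16, FDR 1.00), with the groups interleaved. The receptors had mean levels of 119 ± 33.8 in SH and 170 ± 58.0 CPM in KA glia for Notch1 (logFC 0.51, standard error 0.39) and of 68.5 ± 29.4 and 52.5 ± 16 CPM for Notch2 (logFC -0.38, standard error 0.41; SD, n = 3). The ligand Jag1 had 17.6 ± 6.25 and 23.1 ± 9.38 CPM (SD, n = 3; logFC 0.39, standard error 0.43). Sox2 had 79.4 ± 26.4 and 63.2 ± 30.0 CPM (SD, n = 3; logFC -0.33, standard error 0.45), and Sox9 had 71.1 ± 14.7 and 78.3 ± 21.0 CPM (SD, n = 3; logFC 0.14, standard error 0.46). With such standard errors, differences of about the size seen for Dll1 could not be told from none in this fit.

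**Figure D3:**
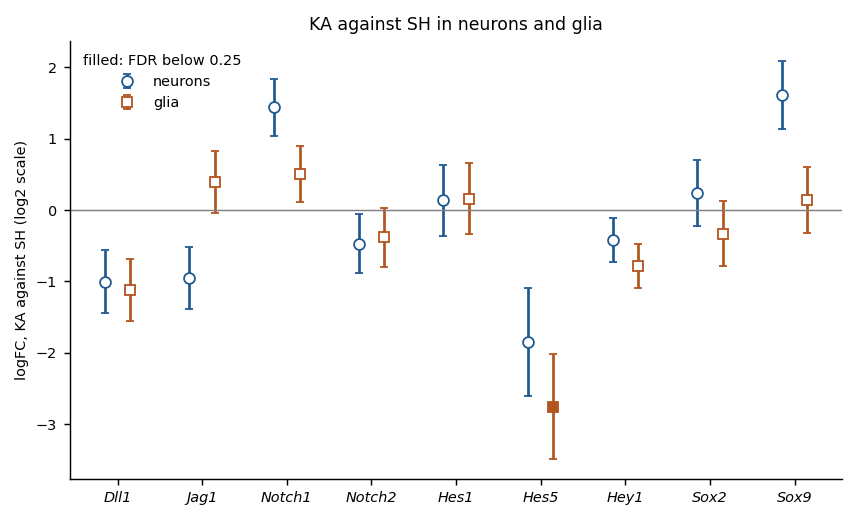
logFC of KA against SH (log2 scale) for the 9 genes in neurons (circles) and glia (squares), with bars of 1 standard error from the edgeR fit of all 12 libraries and filled symbols for an FDR below 0.25. Hes5 in glia, at -2.75, is the single filled symbol; Notch1 (1.44) and Sox9 (1.62) in neurons are the largest positive values.

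Marker genes of glial cell types moved with Hes5, Dll1 and Hey1. The astrocytic sum was 2060 to 3010 CPM in SH and 929 to 1870 CPM in KA glia. KA glia lay below SH glia without overlap for 6 of the 10 astrocytic genes and above for 1, beside 3% and 3.61% of all genes. The OPC sum was 1060 to 1790 CPM in SH and 462 to 751 CPM in KA glia, with KA below SH without overlap for 4 of 5 genes. The oligodendrocytic sum was 12000 to 25000 CPM in SH and 6490 to 12200 CPM in KA glia. The sum of 8 reactive astrocytic genes went the other way, from 222 to 269 CPM in SH to 1330 to 2640 CPM in KA glia. Microglial markers summed to 1000 to 2330 and 689 to 1390 CPM, and neuronal markers to 432 to 1440 and 317 to 1230 CPM.

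The 3 genes were also set against these sums, Hes5 and Hey1 against the astrocytic and Dll1 against the OPC sum. Whether the genes differ from one another in this was not tested. Hes5 per 1000 CPM of the astrocytic sum was 29.1, 6.95 and 10.3 in SH glia and 6.73, 2.92 and 3.36 in KA glia, so that the KA libraries stayed below, with a gap between 6.73 and 6.95. Hey1 per 1000 CPM of the astrocytic sum was 4.74 to 6.38 in SH and 4.50 to 8.93 in KA glia, which overlap. Dll1 per 1000 CPM of the OPC sum was 24.4 to 71.9 in SH and 22.3 to 48.8 in KA glia, which overlap as well. Sox9 per 1000 CPM of the astrocytic sum was 20.6 to 42.2 in SH and 52.0 to 73.9 in KA glia, with all KA libraries above. The CPM of Sox9 itself overlapped between SH and KA glia. Sox2 per 1000 CPM of the astrocytic sum was 18.6 to 38.4 in SH and 31.7 to 78.6 in KA glia, which overlap. The part of cell numbers in these levels was not tested.

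**Figure D4:**
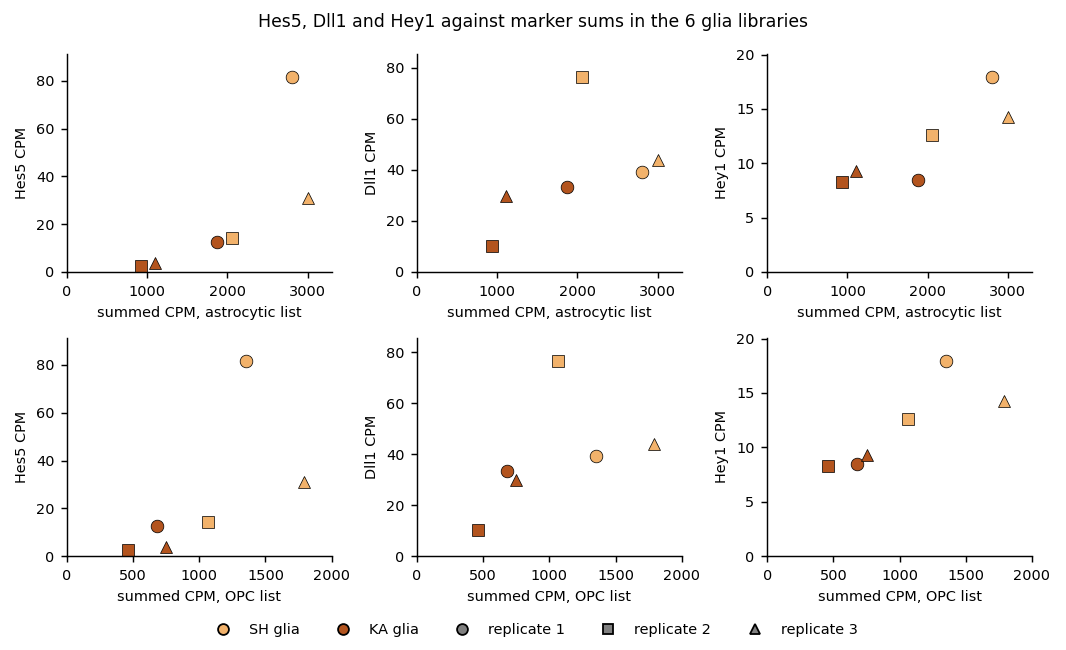
CPM of Hes5, Dll1 and Hey1 (columns) against the summed CPM of the astrocytic (top) and OPC markers (bottom) in the 6 glia libraries, SH light and KA dark, with the replicate number as symbol. KA glia lie to the left (462 to 751 CPM of OPC markers, against 1060 to 1790 in SH glia) and below SH glia in each panel.

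In neurons, no gene of the 9 passed the threshold in the edgeR fit of all libraries. Over all genes, 0.279% were called upregulated and 0.0612% downregulated in neurons. At an unadjusted p below 0.05 there were 5 of the 9 (3.2% of all genes), Notch1, Sox9, Hes5, Dll1 and Jag1. DESeq2 called 2 of the 9, Notch1 and Sox9, both upregulated, and so did the separate fit of the 6 libraries of neurons. The methods of the study describe separate tests of each cell type, but its own list of genes called in neurons names neither gene. The study also tested fewer genes than this separate fit. Of all genes tested, DESeq2 called 0.811% upregulated and 0.402% downregulated in neurons, and the separate fit 1.28% and 0.772%. With the replicate block 3 were called: Notch1 and Sox9 were upregulated and Hes5 was downregulated. That fit called 1.94% of all genes upregulated and 1.11% downregulated in neurons. KA and SH neurons did not overlap for Notch1, which was above, and Dll1, which was below, beside 5.27% of all genes above and 4.45% below.

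Notch1 (ENSMUSG00000026923, chromosome 2 from 26457903 to 26516663) encodes the receptor that is best known from neural progenitors. Its CPM was 14, 31.2 and 24.7 in SH neurons and 43.6, 68.9 and 77.2 in KA neurons. All KA libraries were above all SH libraries, by 3.11, 2.21 and 3.12 times within the 3 numbers. The means were 23.3 ± 8.68 and 63.3 ± 17.5 CPM (SD, n = 3), and the logFC of 1.44 (standard error 0.40) had an FDR of 0.418. The FDR was 0.0682 in the separate fit, 0.0580 with DESeq2 and 0.00304 with the block (logFC 1.47). An exact permutation test gave p = 0.1, the smallest that 3 against 3 libraries allow. Exons on the opposite strand, of 0610009E02Rik, cover 7.50% of its exon bases and had at most 5.63 CPM.

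Sox9 (ENSMUSG00000000567, chromosome 11 from 112782224 to 112787760) had 5.02, 9.74 and 17.2 CPM in SH neurons and 17.2, 24.8 and 56.3 CPM in KA neurons. The highest SH and the lowest KA library were at the same level, but within each number KA was higher, by 3.42, 2.55 and 3.27 times. The means were 10.7 ± 6.15 and 32.8 ± 20.7 CPM (SD, n = 3; logFC 1.62, standard error 0.48, FDR 0.520). The logFC was 0.98 without KA neurons 3 and 2.15 without SH neurons 3. The FDR was 0.188 in the separate fit, 0.0863 with DESeq2 and 0.00454 with the block (logFC 1.61). Its level in neurons was 8.70% to 25.1% of that in glia in SH pools and 17.6% to 69.0% in KA pools.

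The markers beside these values were mixed. The astrocytic sum in neurons was 272 to 880 CPM in SH and 277 to 565 CPM in KA, and none of its 10 genes had KA and SH neurons without overlap. The reactive astrocytic sum in neurons was 70.1 to 135 CPM in SH and 205 to 601 CPM in KA. Without overlap, KA neurons lay above SH neurons for 4 of its 8 genes and below for none. Over all genes these shares were 5.27% and 4.45%. Of the 4 genes, 3 were called upregulated in neurons, beside 0.279% of all genes. The neuronal sum was 4740 to 7810 and 4440 to 5680 CPM. The part of astrocytic RNA among NeuN+ nuclei in the levels of Notch1 and Sox9 was not tested.

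The ligands were lower in KA neurons without a call. Dll1 had 15.5, 10.2 and 19.4 CPM in SH and 8.63, 5.24 and 8.71 CPM in KA neurons, which did not overlap (logFC -1.0, standard error 0.44, FDR 1.00; 0.390 with the block). Jag1 (chromosome 2 from 137081456 to 137116644) had 14, 11.4 and 29.1 CPM in SH and 8.80, 6.84 and 12.4 CPM in KA neurons, which overlapped (logFC -0.96, standard error 0.44, FDR 1.00; 0.303 with the block). Both ligands were below in KA in 3 of 3 number pairs.

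Hes5 was near its lower limit of measurement in neurons. It had 2.78, 0.759 and 5.80 CPM in SH and 0.940, 0.729 and 0.932 CPM in KA neurons, and the smallest count behind these values was 11 reads. The groups overlapped at SH neurons 2 (logFC -1.85, standard error 0.76, FDR 1.00), and without SH neurons 3, the highest library, the logFC was -1.01. With the block the logFC was -1.51 and the FDR 0.126. Hey1 had 29.6 ± 4.83 and 22.1 ± 5.66 CPM (SD, n = 3; logFC -0.42), Hes1 had 21.9 ± 11.9 and 24.0 ± 10.9 CPM (logFC 0.14), Notch2 had 45.8 ± 18.7 and 33.1 ± 8.78 CPM (logFC -0.47), and Sox2 had 8.11 ± 3.19 and 9.51 ± 4.96 CPM (logFC 0.24; SD, n = 3). Each of these 4 overlapped between KA and SH neurons and had an FDR of 1.00.

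Whether KA acted differently in glia and neurons was tested by the difference of the logFC values. None of the 9 genes was called by edgeR or DESeq2, and edgeR called 0% of all genes. At an unadjusted p below 0.05 there were 2 of the 9 (1.34% of all genes), Jag1 and Sox9. The difference was 1.35 (standard error 0.61, FDR 1.00) for Jag1, whose logFC was 0.39 in glia and -0.96 in neurons. For Sox9 it was -1.48 (standard error 0.66, FDR 1.00), with a logFC of 0.14 in glia and 1.62 in neurons. For Hes5 it was -0.90 with a standard error of 1.03, so that the call in glia and its absence in neurons do not show a difference between the cell types. With the pool as a block none of the 9 was called, and 0.471% of all genes.

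The rest of the Notch pathway was described with 47 genes: further ligands, receptors, sugar-transferring enzymes, the cleavage machinery, the nuclear complex, regulators of endocytosis and further targets. None was called in neurons by the edgeR fit of all 12 libraries, with 5 at an unadjusted p below 0.05 (3.2% of all genes). The block called 2 upregulated and 3 downregulated there, beside 1.94% and 1.11% of all genes. The separate fit of neurons called Hes6, a relative of the Hes repressors, and Rbpj, beside 1.28% of all genes upregulated and 0.772% downregulated. Both are named after their values were seen. In glia 1 was called, Dll3, and it was downregulated, while 6 had an unadjusted p below 0.05 (4.79% of all genes). Dll3, a Delta-like protein that acts within the cell and can inhibit Notch signalling, had 32.7, 17.4 and 27.5 CPM in SH glia and 10.8, 4.51 and 8.77 CPM in KA glia. Its groups did not overlap, and its logFC was -1.69 (standard error 0.46, FDR 0.249). The call of Dll3, at the very threshold, was lost without SH glia 1 or 3 or any 1 of the 3 KA glia libraries, and kept without SH glia 2. The study's own list of genes called in glia names Dll3, also as downregulated. With the block 2 of the 47 were upregulated and 7 downregulated in glia, beside 3.47% and 4.17% of all genes. The median logFC in glia was -0.17 for these 47 genes and 0.14 for all genes tested, and 15 of the 47 had a positive value. KA glia lay below SH glia without overlap for 5 of the 47 and above for none, beside 3% and 3.61% of all genes.

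The 43 further progenitor genes gave no call in either cell type in the edgeR fit of all libraries. At an unadjusted p below 0.05 there were 6 in neurons and 12 in glia, beside the 3.2% and 4.79% of all genes. Other fits called some of them, among them the separate fit of neurons (Sox11) and RLE factors in glia (Hopx and Fabp7), named here after their values were seen. Over these genes, 47 pathway genes and 9 further SOX factors, DESeq2 called 3 of 99 in neurons and 14 in glia, in either direction. Of all genes, that test found 0.811% higher and 0.402% lower in KA than in SH neurons. Its shares for glia were 0.971% higher and 1.72% lower. In glia the median logFC of the 43 progenitor genes was -0.29. KA glia lay below SH glia without overlap for 14 of the 43 and above for 2, beside the 3% and 3.61% of all genes. In neurons, these numbers were 4 below and 2 above, beside 4.45% and 5.27% of all genes. By group, the median logFC in glia was -0.44 for 24 stem cell and radial glia genes, -0.90 for 11 genes of intermediate progenitors and neuroblasts, and 0.40 for 8 genes of proliferation, of which all 8 had a positive value and none was called. Of the 9 SOX factors the edgeR fit of all libraries called none in either cell type, with 1 unadjusted p below 0.05 in each, while the block called 2 in neurons and 1 in glia and DESeq2 called Sox7 in neurons and Sox8 in glia, named after their values were seen.

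**Figure D5:**
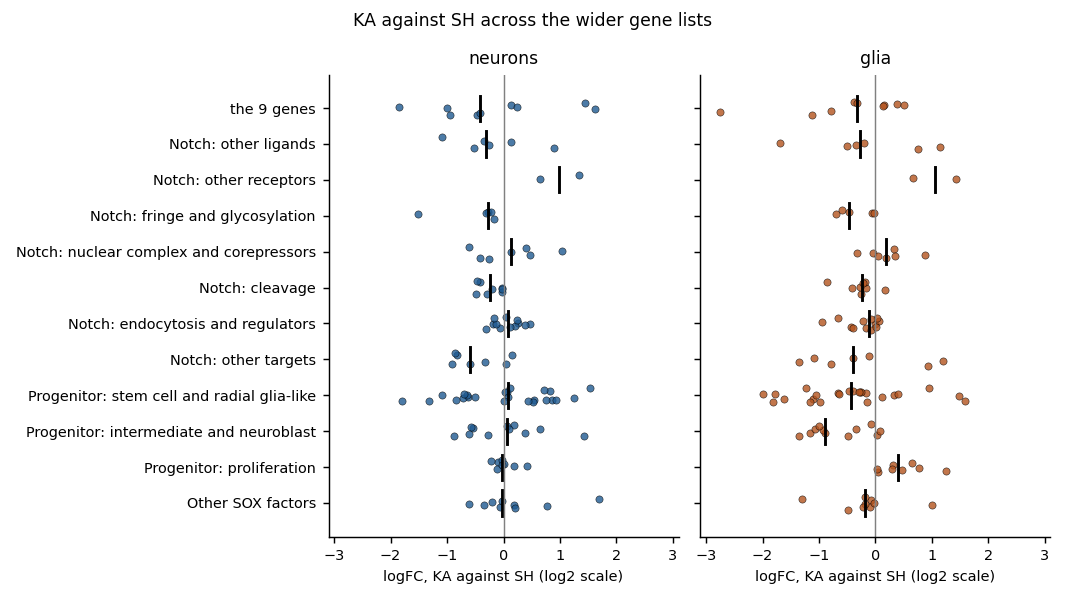
logFC of KA against SH (log2 scale) in neurons and glia for the 9 genes and for the lists of further Notch pathway, progenitor and SOX genes, 1 point per gene, with the median of each list as a vertical line. In glia the median is -0.90 for intermediate progenitor and neuroblast genes and 0.40 for proliferation genes.

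The genes whose log2 CPM over the 12 libraries was most like that of a member were sought among 12801 protein-coding genes. For Hes5 they were Aldoc (Pearson r 0.978), Slc39a12 (0.971) and Agt (0.970), for Notch1 Tns1 (0.989), Frrs1 (0.985) and Rgs20 (0.975), for Sox2 Tmem123 (0.985), Sparc (0.980) and Tsc22d4 (0.979), and for Sox9 Ddah1 (0.974), Rest (0.964) and Timp3 (0.962). For Hey1 they were Bend6 (0.980), Grhl1 (0.963) and Ppp1r2 (0.961), for Dll1 Efnb3 (0.952), Wrap53 (0.929) and Bcan (0.924), and for Hes1 Nudcd2 (0.966), Psmb10 (0.944) and Gemin2 (0.918). For Notch2 they were Tjp1 (0.959), Rbl2 (0.949) and Strn (0.946), and for Jag1 Mcur1 (0.907), Gm28043 (0.897) and Crybg3 (0.881). These values describe 12 libraries that include the step between neurons and glia. Aldoc, which is also in the astrocytic list, had 264 ± 85.4 CPM in SH and 78.0 ± 46.6 CPM in KA glia (SD, n = 3; logFC -1.76, FDR 0.245).

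Between members, the correlation over the 12 libraries was highest for Notch1 and Sox9 (r 0.937), followed by Dll1 and Hes5 (0.866) and Sox2 and Sox9 (0.859). Within the 6 glia libraries it was highest for Hes5 and Hey1 (r 0.893), and Hes5 and Notch1 had -0.792. The libraries share the sort and, in the first case, the difference between the cell types.

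Gene models on the same ground were counted apart. Sox2 (chromosome 3 from 34650405 to 34652461) lies inside Sox2ot, a noncoding gene on the same strand with which it shares 0 exon bases in the annotation. Sox2ot had 194 to 535 CPM in SH and 127 to 376 CPM in KA glia, and 17.7 to 57.6 CPM in neurons. Of the exon bases of Notch2 (chromosome 3 from 98013527 to 98150361), 5.02% are shared with Gm42820, which had at most 8.08 CPM. Hes1 (chromosome 16 from 30064384 to 30067796), Hey1, Jag1 and Sox9 shared no exon bases with another gene.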

How the data were processed

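The 12 mRNAseq libraries were analysed; RRBS data were not used here. The authors trimmed reads with Trim Galore 0.4.3, aligned them to mm10 with Rsubread and deposited raw counts per gene (featureCounts with default settings, GENCODE M16), without normalization. By default, strand is ignored and a read on exons of 2 genes is assigned to neither. Symbols, positions and exon lengths were taken from GENCODE M21 (GRCm38), and the 105 genes without a symbol there (at most 0.0368% of counts) were left out.

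The test was that of edgeR (version 4.0.16; R 4.3.3): filterByExpr (minimum count 10, minimum total 15), TMM factors, 4 group means over 12 libraries, glmQLFit with legacy=TRUE and glmQLFTest, with Benjamini-Hochberg adjustment over 37598 genes and the FDR threshold of the study, 0.25. The study treated the cell types separately, which was an alternative here, beside DESeq2 1.42.0. The F statistic gave the standard error of a logFC (its size over root F). P values of the main fit rest on the spread between the libraries of a group, each from another pool. That fit takes neurons and glia of the same pool as independent. Scripts were tested on simulated data.

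KA and SH libraries of the same number deviated together from their group means across genes (r 0.399, 0.264 and 0.551 in neurons, 0.457, 0.543 and 0.764 in glia). In KA against SH the number was therefore also fitted as a block within each cell type. Neither labels nor methods say that KA and SH pools were paired by number, so this pairing comes from the data. The study's first sample of each treatment pooled more mice than the others. Its mRNA libraries were run on different sequencers, which the paper does not name for each library. The part of pool size or sequencer in the shared deviations was not tested. Neurons and glia of a pool come from the same mice, hence the sign-flip test over 6 pools. For the same reason, fits across the cell types used the pool as the block.

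Named were all 9 members, genes of the other lists with an FDR below 0.25, and genes with overlapping exons. The 3 most similar protein-coding genes per member (mean CPM of at least 5) were named too. Of the markers, Aldoc is named as a similar gene, and Slc4a4 and Slc1a2 for their levels in neurons. Members, lists and tests were chosen with earlier results of these data known. Other marker lists were endothelial, pericytic, ependymal and blood leukocyte genes. Alternatives were other fits, filters, scalings, thresholds, autosomes only, and libraries left out; leaving out the 4 libraries numbered 3 was added after the data were seen. Promoters came from RefSeq. Plots were made in matplotlib 3.10.9 (Python 3.11.15).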

Additional observations from a re-analysis of the deposited data

Results flagged for a closer look

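Single libraries were compared with the others of their cell type by Dixon's criterion for 6 libraries. By chance it marks about 1 in 20 groups of values from a single distribution. The 6 libraries of a cell type hold both SH and KA, so that this rate need not hold where the treatments differ. Hes5 in SH glia replicate 1, at 81.6 CPM, stood apart from the next glia library at 30.8 CPM; this library was amplified with 15 PCR cycles, and KA glia replicate 2, amplified in the same way, had the lowest Hes5 level in glia, 2.71 CPM. Jag1 in SH neurons replicate 3, at 29.1 CPM, stood apart from the next library of neurons at 14 CPM. Without that library the logFC of Jag1 in neurons was -0.44.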

How the results depend on the processing

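The count of genes called among the 9 moved with the test. In neurons, where none was called, the count was 2 in separate fits for each cell type, 3 with the replicate block, 2 with DESeq2 and 2 when at least 10 counts in every library were required; it stayed at 0 with edgeR 4, RLE factors, no filter, autosomes, an FDR of 0.05 and each library left out. In glia, where 1 was called, it was 0 in separate fits, 3 with the block, 2 with DESeq2, 3 with at least 10 counts in every library, 0 at an FDR of 0.05, 0 without both low-input libraries, 0 without the 4 libraries numbered 3, and 0 to 1 when each glia library was left out. The fit that required at least 10 counts in every library called 1.77% of all genes upregulated and 0.73% downregulated in neurons. In glia it called 2.38% and 4.08%. The separate fit of glia called 0.385% upregulated and 0.0507% downregulated. The cause of the differences between tests was not tested.

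For single genes, 627 of 666 values with another setting stayed on their side of the threshold, 19 passed it in addition and 20 lost it. The sign changed in 4 of 144 values in neurons and 7 of 144 in glia, for Hes1, Sox2 and Sox9 alone, and in 22 of 189 values of the difference between cell types; none of these was called. Depth limits Hes5 in neurons, with 11 reads in the smallest case. The blocks by number and by pool changed no other call of a member than those given.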

Other observations

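With the replicate number as a block, 13 of the 43 further progenitor genes were downregulated and 1 was upregulated in glia, in a fit that called 4.17% of all genes downregulated and 3.47% upregulated. These genes are named after their values were seen. Among those downregulated were Fabp7, Hopx, Lhx2 and Id4 from the stem cell and radial glia list and Neurod1 and Dcx from the list of intermediate progenitors and neuroblasts, and the upregulated gene was Id1. Several of them, such as Fabp7, a fatty acid-binding protein, and Id4, a repressor of the ID family, are also expressed by astrocytes. The astrocytic marker sum was 929 to 1870 CPM in KA and 2060 to 3010 CPM in SH glia. The reactive astrocytic sum was 1330 to 2640 CPM in KA and 222 to 269 CPM in SH glia. The part of astrocytic RNA in the levels of these genes was not tested. Without the block none of the 43 was called by the edgeR fit of all 12 libraries, and 12 had an unadjusted p below 0.05. Of the pathway genes, Dll3, Lfng, Aph1b, Mib2, Dtx1, Hes6 and Nrarp were downregulated and Dlk2 and Notch4 upregulated in glia with the block. In neurons the block called Rbpj, the DNA-binding partner of the Notch intracellular part, and Notch4 upregulated, and Dll3, Lfng and Hes6 downregulated. Of all genes, it called 1.94% upregulated and 1.11% downregulated in neurons.

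Of the remaining marker lists, endothelial genes summed to 12.7 to 47.2 CPM in SH and 21.8 to 67.7 CPM in KA glia, pericytic genes to 31.6 to 51.7 and 22.5 to 55.4 CPM, ependymal and choroid plexus genes to 21.8 to 177 and 19.5 to 37.5 CPM, and blood leukocyte genes to 72.6 to 82.2 and 80.0 to 118 CPM. Only the ranges are given, and no gene of these 4 lists was called in either cell type.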
